A study of Drosophila melanogaster with 12 samples.

Results

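The comparison described here is miR-11 alone against the driver control, 6 of the 12 arrays of the series. It was taken from the labels: the 3 arrays titled GMR>miR-11 (genotype GMR-Gal4/UAS-miR-11) and the 3 titled GMR>WT (genotype GMR-Gal4/+). RNA came from larval eye discs (in their last instar) of Drosophila melanogaster, the epithelium that becomes the adult eye, and was read on Affymetrix expression arrays. The other 6 arrays, 3 with all 3 transgenes (GMR-Gal4/UAS-miR-11 on one chromosome pair and UAS-dE2F1,UAS-dDP/+ on another) and 3 with dE2F1 and its partner dDP but no miR-11 (GMR-Gal4/+; UAS-dE2F1,UAS-dDP/+), are used where the miR-11 values have to be set against another genotype. All animals carried 1 copy of GMR-Gal4 and were raised at 25 degrees Celsius. GMR is used to drive expression behind the morphogenetic furrow, and the same RNA also holds cells in front of it. Where else the transgene was made was not measured here. The control carried no UAS transgene of any kind. The labels call the replicates biological and do not say how many animals or crosses stand behind each.

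A microRNA guides a silencing complex to messenger RNAs that carry a match to its seed, the short stretch near its 5′ end, and lowers their translation and stability. The gene of miR-11 lies within the gene of the cell cycle activator dE2F1, E2f1 in the RefSeq gene table, on chromosome arm 3R. In the fly eye miR-11 is known for damping the cell death that dE2F1 sets off, through the proapoptotic genes rpr and hid. Mature miR-11 was not measured here, and direct targets cannot be told apart from later changes.

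The data have 2 layers. One is a log2 expression value for each of 18769 probe sets on every array, after 183 Affymetrix controls were set aside, in which probe sets have no gene names. The other is the authors' deposited table, with 13281 named genes and an average log2 fold change over the control for each transgenic genotype. That table gives no value per array, so its numbers are printed without SD or n, and gene levels, such as those of eye disc markers, cannot be read from it. A gene is said here to have risen or fallen where the table's pfp, the estimated proportion of false positives, was under 0.05 in the direction of the change. Each of the 60 such genes (0.452%) had 1 probe set on the arrays whose 3 differences matched the table within 0.015. Probe sets were not given gene names from such matches. The matches are used here only to count and to say which called genes matched a probe set called on the arrays.

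The arrays of these 2 genotypes varied widely among themselves. On the first principal component, with 63.1% of the variance, the 3 miR-11 arrays scored -34.0, 20.6 and 83.3, against 49.8, -1.88 and -9.33 for the 3 control arrays. miR-11 replicate 3 stood furthest out, with correlations of 0.927 to 0.985 to the other arrays. Results of the probe sets are therefore also given without single arrays, which the table of genes does not allow.

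miR-11 alone was accompanied by 41 genes that rose and 19 that fell in the authors' deposited table, 0.309% and 0.143% of the genes in it. The rises spanned 2.65-fold to 18.4-fold and the falls 2.47-fold to 12.4-fold. With no regard to pfp, 104 genes (0.783%) were at log2 1 or more and 34 (0.256%) at -1 or less in the authors' deposited table. Of the 41 rises 32, and of the 19 falls 12, lay outside all 26 lists of tissue or function used here. Most genes of the table do too, as the lists hold 514 measured entries against 13281 genes. List members were chosen with earlier results of these data known, so nothing is read from these counts. Of the 41, 23 still have only a CG number as their name in the RefSeq table, and of the 19, 4. The share of such names over all genes was not counted, so whether these are many or few is not known.

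**Figure D1:**
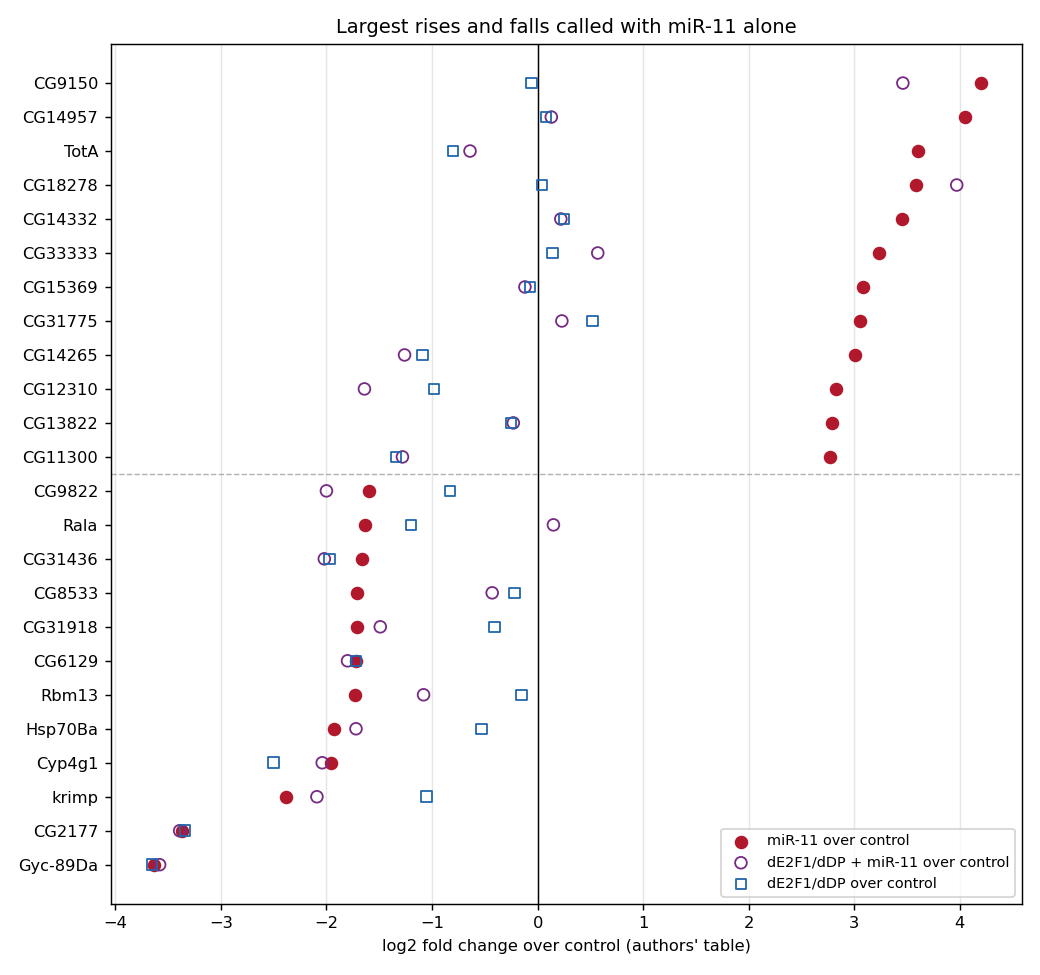
The 12 largest rises and the 12 largest falls called with miR-11 alone, by gene (vertical axis), as log2 fold change over the control in the authors' table (horizontal axis) for the 3 transgenic genotypes. Among the rises, only CG9150 and CG18278 were also far to the right with all 3 transgenes, while Gyc-89Da, CG2177 and CG6129 had nearly the same value in every genotype.

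The largest rise among the named genes was that of CG9150, which encodes an enzyme of the short-chain dehydrogenase type. It stood at log2 4.20 with miR-11, 3.46 with all 3 transgenes and -0.06 with dE2F1/dDP in the authors' deposited table. CG18278, a sulfatase-type gene, followed with log2 3.58, 3.97 and 0.04 in the same order in the authors' deposited table. RefSeq places a gene named CG30059 close to CG18278, and the table does not say whether its value is shared between them. Both genes were high in each of the genotypes that carry UAS-miR-11 and near 0 in the one that does not.

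Adding miR-11 to dE2F1/dDP gives a second measure of miR-11 that uses none of the arrays of miR-11 alone or the control. It is the value with all 3 transgenes minus that with dE2F1/dDP, in which the control cancels. Of the 41 genes that rose with miR-11 alone, 5 were higher by log2 1 or more in that difference, or 12.2%, against 0.309% of all genes in the authors' deposited table. Besides CG9150 (log2 3.51) and CG18278 (3.93) these were the cytochrome P450 gene Cyp6a13 (1.54), the maltase gene LvpH, now Mal-A1 (1.04), and CG2065, a dehydrogenase-type gene (1.03), in the authors' deposited table. Of the 19 that fell, 5 were lower by log2 1 or more, or 26.3%, against 0.211% of all genes in the authors' deposited table. These were the gene krimp of the germline piRNA machinery (-1.04), Hsp70Ba (-1.19), CG31918, a neprilysin-like peptidase gene now called Nepl3 (-1.08), CG9822 (-1.17) and CG14456 (-1.08), all from the authors' deposited table. These differences of table values have no test of their own.

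For most of the rest the second measure was small or opposite. It lay within log2 1 of 0 for 32 of the 41 rises and 13 of the 19 falls, with medians of 0.06 over the rises and -0.21 over the falls in the authors' deposited table. It was lower by at least log2 1 for 4 of the 41 genes that had risen with miR-11 alone, against 0.211% of all genes in the authors' deposited table. These were Sgs4 (-2.93), Sgs3 (-2.72), CG17145 (-1.54) and the clotting factor gene fon (-1.08), in the authors' deposited table. So some called rises went the opposite way in the second measure, nearly as many as the 5 that went the same way by as much. Rala, a small GTPase of the Ras family, was the only one of the 19 falls to be higher by that much (1.35, with log2 -1.63 for miR-11 alone), against 0.309% of all genes in the authors' deposited table.

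**Figure D2:**
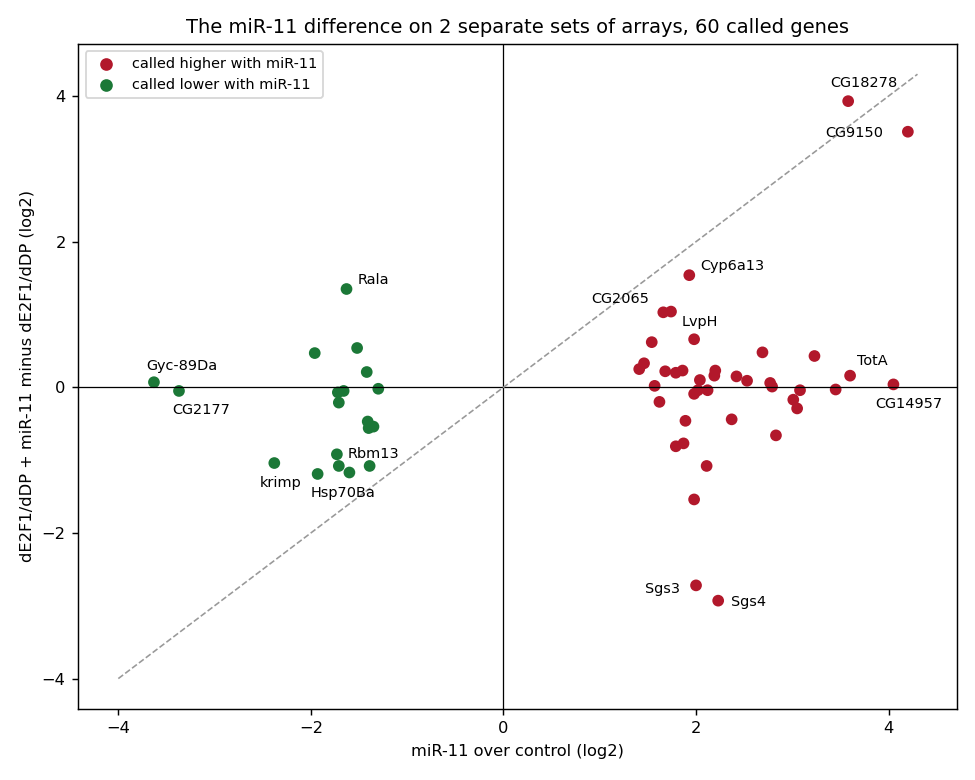
The 60 called genes, with miR-11 over control on the horizontal axis and all 3 transgenes minus dE2F1/dDP on the vertical axis, both log2 from the authors' table; the dashed line marks equal values. CG9150 and CG18278 lie near the line, most genes lie along 0 on the vertical axis, and Sgs3 and Sgs4 lie far below it.

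Several genes with large rises were not high in the genotypes with dE2F1/dDP. CG14957 stood at log2 4.05 with miR-11, 0.13 with all 3 transgenes and 0.08 with dE2F1/dDP in the authors' deposited table. For TotA, which encodes a secreted stress peptide known from the fat body, the values were log2 3.60, -0.64 and -0.80 in that order in the authors' deposited table. It was the only 1 of 8 measured Turandot genes that was called, the other members lying between log2 -0.10 and 0.07 in the authors' deposited table. CG14332 (log2 3.45) and CG33333 (3.23) also rose, as did CG15369 (3.08), CG31775 (3.05), CG14265 (3.01), CG12310 (2.83), CG13822, now GILT3 (2.79), and CG11300 (2.77), in the authors' deposited table. Of these, CG14265 (-1.26 and -1.09), CG12310 (-1.64 and -0.98) and CG11300 (-1.28 and -1.34) were below the control with all 3 transgenes and with dE2F1/dDP, in that order. The rest lay between log2 -0.25 and 0.57 in those genotypes.

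Some of these genes are neighbours on the chromosome. CG14332 and CG33333 follow each other on 3R with no measured gene between them. CG12310 and CG13460 (log2 2.69) on 3L have 3 measured genes between them, CG18649 at log2 1.85, CG13461 at 0.04 and CG13463 at -0.10, none of them called, in the authors' deposited table. On the X chromosome CG14265, Pig1 (log2 2.53) and Sgs4 (log2 2.23) lie close together, with the new glue genes ng1, ng3 and ng4 between CG14265 and Pig1 at log2 0.06, 1.26 and 0.22 in that order, none of them called, in the authors' deposited table. mthl8, a receptor gene of the methuselah-like family (log2 1.57), is next to the storage protein gene Lsp1gamma on 3L in the authors' deposited table. CG10550 and CG31436, which are next to each other on 3R, went opposite ways, at log2 1.62 and -1.66 in the authors' deposited table.

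By tissue of origin, genes of the salivary gland stood highest. Sgs genes encode the glue that fixes the pupa to its support, and larval salivary glands make it late in the last larval stage. All 6 Sgs genes in the authors' deposited table were positive with miR-11, from log2 0.91 to 2.23, and Sgs4 (4.70-fold) and Sgs3 (4.01-fold) were called. The salivary list as a whole had 15 of 17 measured genes positive with a median of log2 1.26 and 3 called higher, against 43.0% positive, a median of -0.03 and 0.309% called over all genes of the authors' deposited table. None of the 3 salivary gland genes called matched a probe set that limma called with miR-11, a test that takes the spread between arrays into account. Pig1, a salivary gland gene next to Sgs4, was the remaining called gene, at 5.79-fold in the authors' deposited table. Genes of gland identity stayed near 0, with the transcription factor genes sage at log2 0.31, CrebA at 0.19 and fkh at -0.18 in the authors' deposited table, none of them called. In the second measure of miR-11 all 6 Sgs genes were negative, at a median of log2 -2.70, as was every other member of the list except Pig1 (0.09), by the authors' deposited table. Sgs4 stood at log2 1.91 with dE2F1/dDP alone and -1.02 with all 3 transgenes, and Pig1 at -1.59 and -1.50, in the authors' deposited table. In RNA of whole discs, more cells of a tissue and more RNA per cell cannot be told apart, and which arrays carry these values cannot be read from the table.

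The list of larval storage and fat body genes came next. Of 17 measured, 15 were positive with a median of log2 0.76, with 2 members called up and 1 called down, according to the authors' deposited table. Obp99b, an odorant-binding protein gene, rose by log2 1.98 and Lsp1gamma, a larval serum storage protein gene, by 1.87, and the other storage protein genes stood at 1.35 (Lsp2), 1.34 (Lsp1alpha) and 0.82 (Lsp1beta), not called, in the authors' deposited table. Rfabg, the lipoprotein gene now called apolpp, was at log2 1.04 and Fbp2 at 1.06, also not called, in the authors' deposited table. Obp44a, a list member whose tissue of expression was not measured here, fell (log2 -1.42) in the authors' deposited table. Its values were -1.47 for all 3 transgenes and -1.68 for dE2F1/dDP. None of the 3 called genes of this list, and not TotA either, matched a probe set called by limma. The second measure of miR-11 had a median of log2 0.12 over the list, with 11 of 17 genes positive, in the authors' deposited table.

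Blood cell genes moved less. Hemocyte genes had 10 of 14 positive and a median of log2 0.11, with nimC1, a phagocytosis receptor of plasmatocytes, called higher (2.91-fold) in the authors' deposited table. The second measure of nimC1 was log2 0.62, and the gene matched a probe set called by limma with miR-11. Of the 10 Nimrod family genes, to which it belongs, 3 were at log2 1 or more, nimB3 (1.56) and nimB2 (1.04) being the others, neither of them called, in the authors' deposited table. Of other hemocyte markers, Hml (log2 -0.05) and Pxn (-0.09) were near 0 and He (0.54) and eater (0.62) were positive, none of them called, in the authors' deposited table. Members of the hemocyte list ran from log2 -0.61 to 1.54 there. fon rose (log2 2.11), and TepIV, an immune gene of the thioester protein family, fell (-1.41) in the authors' deposited table. Among antimicrobial peptides 0 of 17 were called, with Drs at log2 1.16 and AttD at -1.24. CG15678, now pirk, a brake on the Imd immune pathway, rose (log2 1.89), and it stood at 1.34 with all 3 transgenes and 1.80 with dE2F1/dDP in the authors' deposited table.

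Markers of other neighbouring tissues had list medians between log2 -0.23 and 0.16 in the authors' deposited table. Muscle genes had a median of log2 0.10 over 18 genes, with 0 called and none beyond log2 0.35 in either direction, in the authors' deposited table. In the second measure of miR-11 the muscle list had 16 of 18 genes positive, a median of log2 0.57 and 4 genes at log2 1 or more, by the authors' deposited table. Ring gland and neuroendocrine genes had 16 of 17 negative and a median of log2 -0.23. Of these jhamt, the last enzyme of juvenile hormone synthesis in the corpus allatum, fell (log2 -1.52), while the ecdysone synthesis gene phm was at -0.76 and the insulin-like peptide gene Ilp5 at -0.88, neither called, in the authors' deposited table. jhamt stood at log2 -1.18 with all 3 transgenes and -1.72 with dE2F1/dDP in the authors' deposited table. Among glial genes 12 of 15 were negative, with a median of log2 -0.12 and 0 called, Mdr65 of the blood-brain barrier being lowest (-1.15) and the glial selector repo at -0.18, in the authors' deposited table. Among gut genes LvpH (3.33-fold) and the lysozyme gene LysP (3.20-fold) rose, while the 6 Jonah and 2 trypsin genes measured in that list lay between log2 -0.14 and 0.22 in the authors' deposited table. Cuticle and tracheal genes had 14 of 18 positive and a median of log2 0.16, the larval cuticle protein genes Lcp65Ab1 (1.32) and Lcp3 (1.19) being highest without being called, in the authors' deposited table. Of that list Cyp4g1, a P450 of oenocytes that makes cuticular hydrocarbons, fell (log2 -1.96), with -2.04 for all 3 transgenes and -2.50 for dE2F1/dDP in the authors' deposited table. What part these tissues have in the differences was not tested.

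**Figure D3:**
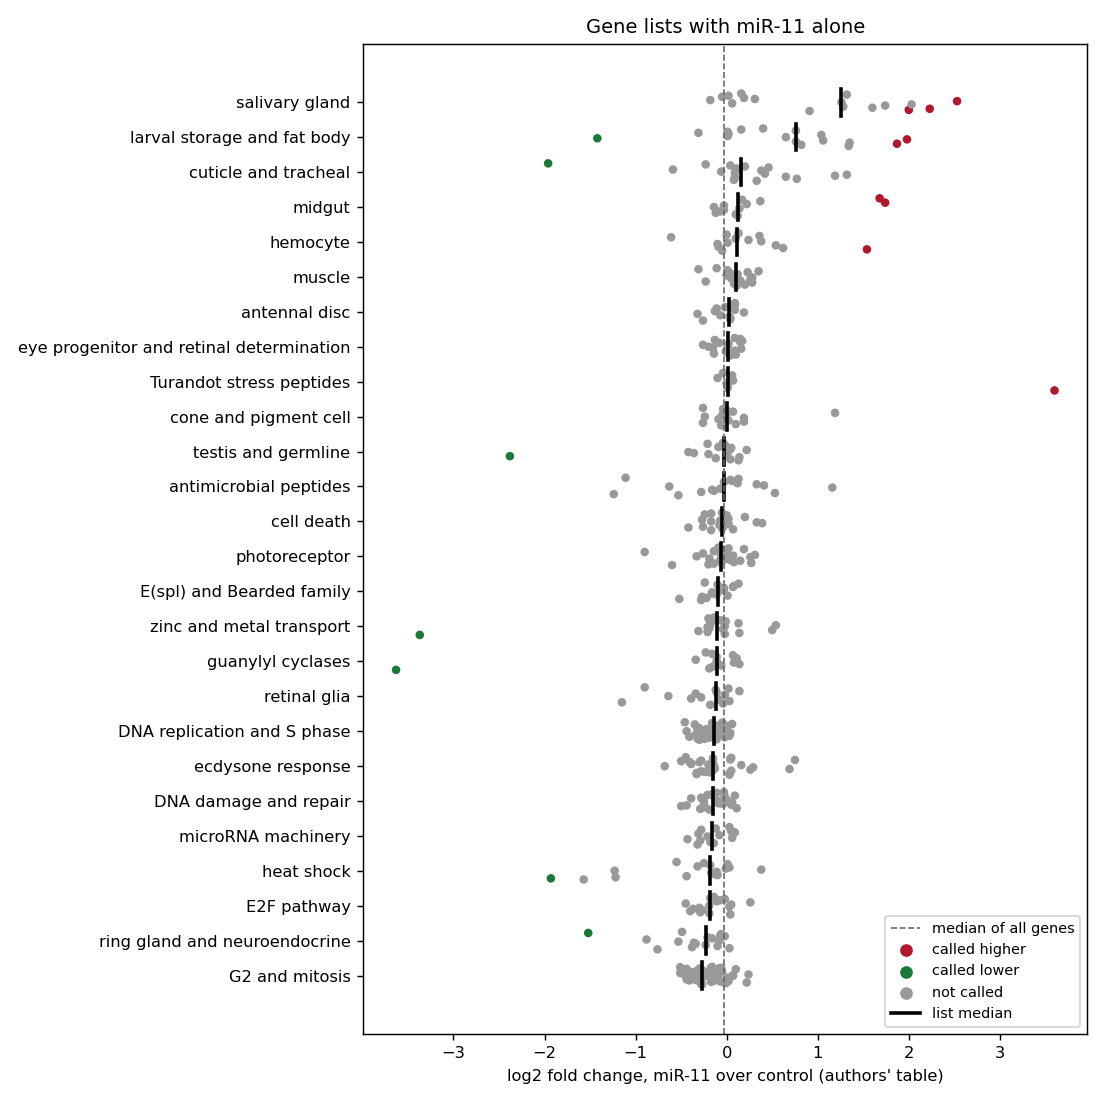
Each point is a gene of one of 26 lists (vertical axis, ordered by median), placed by its log2 fold change with miR-11 over control in the authors' table (horizontal axis); black bars are list medians and the dashed line is the median of all genes. The salivary gland and fat body lists lie to the right at medians of 1.26 and 0.76, and the eye lists lie around 0.

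No gene of the eye lists was called. In the authors' deposited table the eye progenitor and retinal determination list had 12 of 19 genes positive, a median of log2 0.01 and 0 called, and its members lay between -0.26 and 0.17. The selector genes ey (log2 0.04), eya (0.01), dac (-0.01) and so (-0.14) were all within that range. Photoreceptor genes had a median of log2 -0.06 and 0 of 25 called, with the neuronal marker elav at -0.08 and the eye transcription factor gl at 0.04, in the authors' deposited table. Lowest in that list were pnt, an effector of EGF receptor signalling (log2 -0.90), and sev, the receptor for the R7 cell fate (-0.60), neither called, in the authors' deposited table. Antennal genes had a median of log2 0.03, and cone and pigment cell genes of 0.00, with 0 called in either list in the authors' deposited table. The one value of that last list beyond log2 1 was that of w (1.19, pfp = 0.0765), a marker gene that most such transgenes carry, in the authors' deposited table.

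None of the genes named here for a link to miR-11 in earlier work was called. In the authors' deposited table the proapoptotic genes stood at log2 -0.17 (rpr), 0.07 (W, known as hid), -0.05 (grim) and -0.42 (skl), with 0 of 21 cell death genes called. In the second measure of miR-11 the same genes were at -0.04, -0.28, 0.13 and 0.01. E(spl) complex and Bearded family genes, Notch targets whose messages are known for motifs that match the miR-11 seed, had 13 of 17 negative, against 56.3% of all genes, a median of log2 -0.10 and 0 called in the authors' deposited table. HLHm5 was lowest (log2 -0.52), and its second measure was -0.03. E2f, the host gene of miR-11, stood at log2 0.04 and Dp at -0.29 in the authors' deposited table. No sequence was searched for seed matches here.

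Cell cycle lists sat slightly below the other genes without any single gene being called. DNA replication genes had 38 of 42 negative and G2 and mitosis genes 44 of 51, with medians of log2 -0.14 and -0.27 against -0.03 for all genes in the authors' deposited table. The lowest p of each belonged to CG15220, the gene of RPA3 (log2 -0.32), and to the condensin gene glu (-0.51). In the second measure of miR-11 the medians were 0.03 and 0.01. MicroRNA machinery genes had a median of log2 -0.16 over 14 genes and 0 called, the processing factor gene pasha being lowest (-0.43), in the authors' deposited table.

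Of the heat shock genes 1 fell. Hsp70Ba, an inducible chaperone gene, fell 3.81-fold, and Hsp70Aa (log2 -1.57), Hsp67Bb (-1.23) and Hsp68 (-1.22) were low without being called in the authors' deposited table. Copies of Hsp70 are near identical in sequence, so the values of Hsp70Aa and Hsp70Ba may share signal. Of the 17 heat shock genes measured, 14 were negative with a median of log2 -0.18. Hsp70Ba was at log2 -1.72 with all 3 transgenes and -0.53 with dE2F1/dDP in the authors' deposited table.

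Some of the genes that fell had nearly the same value in all 3 transgenic genotypes. Gyc-89Da, an atypical soluble guanylyl cyclase gene of oxygen sensing, stood at log2 -3.63 with miR-11, -3.58 with all 3 transgenes and -3.65 with dE2F1/dDP in the authors' deposited table. Its paralogue Gyc-89Db was at log2 -0.19 with miR-11, and no other of the 13 guanylyl cyclase genes passed in the authors' deposited table. CG2177 (current name Zip102B), which encodes a zinc transporter, stood at log2 -3.37, -3.39 and -3.34 in the same order, while the other 18 metal transport genes lay between -0.31 and 0.54 with miR-11 in the authors' deposited table. CG6129, which encodes the ciliary rootlet protein Root, was at log2 -1.72, -1.80 and -1.72, and CG31436 at -1.66, -2.02 and -1.97 in the authors' deposited table. GstD9, a glutathione transferase gene, was at log2 -1.30, -1.58 and -1.57, and the other 9 delta class genes were between -0.26 and 0.26 with miR-11, in the authors' deposited table. These 3 comparisons share the control arrays, so their likeness is no independent measure of a fall.

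Some other falls were further from 0 in both genotypes with miR-11 than with dE2F1/dDP, a difference that was not tested per gene. krimp stood at log2 -2.38 with miR-11, -2.09 with all 3 transgenes and -1.05 with dE2F1/dDP in the authors' deposited table. The other 17 measured germline and testis genes lay between log2 -0.42 and 0.22 and none was called in the authors' deposited table, among them the piRNA genes aub (-0.12), AGO3 (0.14) and vas (0.13). Rbm13, an RNA-binding protein gene, was at log2 -1.73, -1.08 and -0.15, and CG31918 at -1.71, -1.49 and -0.41 in the authors' deposited table. CG8533, now the ionotropic receptor gene Ir76a, fell with miR-11 alone (log2 -1.71, against -0.43 and -0.22 in the same order) in the authors' deposited table. PH4alphaMP, a prolyl hydroxylase subunit gene, fell by log2 1.40 and CG15449 by 1.35 in the authors' deposited table.

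On the arrays, with the spread between replicates taken into account, limma put 29 probe sets past a Benjamini-Hochberg adjusted p of 0.05, or 0.155% of the 18769 tested. Of these 18 (0.0959%) were higher with miR-11 and 11 (0.0586%) were lower. The 3 miR-11 arrays and the 3 control arrays did not overlap for any of the 29, and 4.9% of all probe sets had such groups. The called rises ran from log2 0.81 to 5.35 and the called falls from -4.31 to -0.56. Leaving out miR-11 replicate 1 gave 45 calls, miR-11 replicate 2 gave 16, miR-11 replicate 3 gave 27 and control replicate 3 gave 14, and a fit of the 6 arrays alone gave 10. Of the 60 genes called in the authors' deposited table, 15 matched 1 of the 29 probe sets, 9 of the 41 rises and 6 of the 19 falls, and 14 of the 29 matched no called gene.

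Probe set 1641174_at had the largest called difference, beyond the highest gene value of the authors' deposited table (log2 4.20). It read 8.62, 9.41 and 10.20 on the miR-11 arrays, against 3.97, 3.95 and 4.27 on the control arrays (log2 expression), a difference of 5.35 ± 0.39 (SE, limma adjusted p = 0.000214, n = 3 each). The control values were at the level of dim probe sets, the lower quartiles of the arrays being 3.75 to 3.97. No background level was estimated, so how far such low signal affects the size of the difference is not known. With all 3 transgenes it read 8.11, 9.33 and 8.86, against 3.81, 3.66 and 4.26 with dE2F1/dDP (difference 4.85 ± 0.39, SE, limma adjusted p = 0.00121). All 6 arrays with UAS-miR-11 thus lay far above all 6 without it.

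The next rise, 1623971_at, had the same pattern. It read 8.06, 8.86 and 9.0 on the miR-11 arrays, against 4.93, 4.21 and 4.18 on the control arrays (difference 4.20 ± 0.28, SE, limma adjusted p = 0.000103). With all 3 transgenes the values were 7.54, 8.23 and 7.92, against 4.47, 4.36 and 4.32 with dE2F1/dDP (difference 3.52 ± 0.28, SE, limma adjusted p = 0.00121).

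The 2 largest falls followed other patterns, and both lay beyond the lowest gene value of the authors' deposited table (log2 -3.63). Probe set 1629242_x_at read 5.87, 5.91 and 6.51 on the miR-11 arrays, against 10.73, 10.11 and 10.39 on the control arrays (difference -4.31 ± 0.29, SE, limma adjusted p = 0.000103). With all 3 transgenes it read 10.39, 9.91 and 10.13, against 9.92, 9.88 and 10.87 with dE2F1/dDP (difference -0.08 ± 0.29, SE, limma adjusted p = 1). So the 3 arrays of miR-11 alone were low and the other 9 high, although 3 of those 9 also carry UAS-miR-11. Probe set 1624543_s_at read 4.81, 5.01 and 4.47 on the miR-11 arrays, against 8.17, 8.81 and 8.99 on the control arrays (difference -3.89 ± 0.24, SE, limma adjusted p = 9.96e-05). Its means with all 3 transgenes, 5.30 ± 0.32, and with dE2F1/dDP, 4.90 ± 0.21 (SD, n = 3 each), were low too, so here the 3 control arrays were high and the other 9 low.

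**Figure D4:**
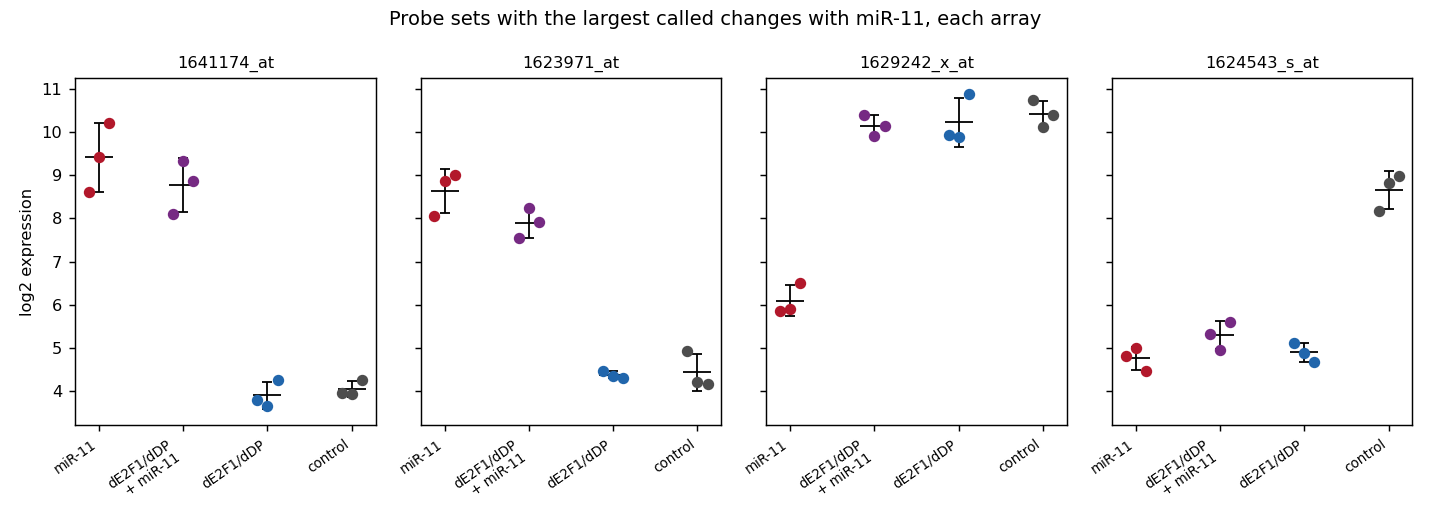
Log2 expression (vertical axis) on each array (points) by genotype (horizontal axis), with mean and SD as bars (n = 3), for the 2 largest called rises and the 2 largest called falls with miR-11. The rises separate the 6 arrays with UAS-miR-11 from the 6 without, 1629242_x_at was low only on the miR-11 arrays (5.87 to 6.51), and 1624543_s_at was high only on the control arrays (8.17 to 8.99).

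Both measures of miR-11 were then compared over all called probe sets. Adding miR-11 to dE2F1/dDP called 7 probe sets (0.0373% of all), 6 of them higher (0.032%) and 1 lower (0.00533%), and 6 of the 7 were among the 18 rises of miR-11 alone, which is 85.7% of the calls of the added transgene and 20.7% of those of miR-11 alone. The 6 were at log2 1.02 to 5.35 with miR-11 alone and at 1.34 to 4.85 in the second measure. The count of 7 became 4 without replicate 1 or replicate 3 of the genotype with all 3 transgenes. None of the 11 falls was called there. By sign alone 9 of the 11 were lower and 16 of the 18 rises higher, against 52.1% of all probe sets with the same sign in both, but 17 of the 29 lay within log2 0.5 of 0 in the second measure.

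A test of miR-11 against dE2F1/dDP, in which the control arrays enter only the shared estimate of the spread, called 29 probe sets (0.155%), of which 20 (0.107%) were higher and 9 (0.048%) lower. Of the 18 rises over the control, 12 were also called higher there, and of the 11 falls 3 were also called lower. This comparison uses the same miR-11 arrays, so it does not repeat the measurement. For the other 8 falls the difference between miR-11 and dE2F1/dDP was not detectable, with log2 differences of up to 1.33 in size. For 1 rise over the control the call was opposite, miR-11 lying between the control and dE2F1/dDP. Here the count was 77 when miR-11 replicate 1 was left out, 14 when miR-11 replicate 2 was, 11 when dE2F1/dDP replicate 1 was and 18 when dE2F1/dDP replicate 2 was.

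The interaction, which asks whether the miR-11 difference is the same with and without dE2F1/dDP, was called for 9 probe sets (0.048%), 6 with a positive (0.032%) and 3 with a negative sign (0.016%). Of the 29 called with miR-11 alone, 7 were among them, 5 of the 11 falls and 2 of the 18 rises. The interaction uses the same miR-11 and control arrays by which the 29 were chosen, so these counts describe the 29 and are not set against the share of all probe sets. Both falls described by array above were in this set.

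Without regard to a test, 160 probe sets (0.852%) differed by log2 1 or more, 118 (0.629%) higher and 42 (0.224%) lower with miR-11. For 53 of the 118 and 28 of the 42 the 2 groups of arrays did not overlap, where 2.41% and 2.49% of all probe sets were higher or lower without overlap. The same arrays gave the differences and the overlap, so nothing is read from these counts. Of the 118, 17 were called, and 62 had the highest of their 3 miR-11 values on replicate 3, the array that stood furthest out. That share was not counted over all probe sets. In the second measure of miR-11, 10 of the 118 were higher by log2 1 or more and 7 of the 42 lower by as much, against 48 and 37 of all 18769. By sign alone 60 of the 118 were higher and 29 of the 42 lower there, against 52.1% of all probe sets with the same sign in both. When miR-11 replicate 1 was left out there were 351 such differences, 174 higher and 177 lower, and when control replicate 1 was left out there were 272.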

How the data were processed

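Per the labels' protocols, 100 ng of eye disc RNA per sample was labelled with biotin for the arrays. The deposited series values are log2 expression per probe set made by the authors. They were made with affy, per the submitters' processing notes. Background correction, normalization and summary were not given in the sources used here. A deposited table by the authors holds average log2 fold changes, p-values and a pfp score, per the file headers, from a rank product analysis, and its columns M/wt were used for miR-11. Its p-values served only to pick the smallest p in a list.

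The log2 values were used as deposited. limma 3.58.1 in R 4.3.3 (lmFit, eBayes, two-sided, Benjamini-Hochberg adjustment over 18769 probe sets) was fitted to the 12 arrays of the series on genotype alone. The fit was tried on simulated data with independent noise for each probe set. Such data lack differences shared across a whole array, so they cannot show how the calls hold on these arrays. The number of arrays limits the precision. Probe sets are unnamed and given by identifier, 2 per direction. Of 13281 table symbols, 12786 matched RefSeq (Release 6), used for current names and gene order. The 26 lists hold 572 entries, 514 of them measured under a symbol that occurs once. Families by symbol were added after values were seen. Members and lists were chosen with earlier results of these data known. Named genes were the 12 largest rises and falls, further called genes, list members called or with the smallest p, and the genes E2f, Dp, rpr, grim, skl, w and W; other members named for their role or for lying at the edge of a list were chosen after their values were seen. Nothing says whether replicates came from separate crosses, and p-values measure only the spread between these samples. Alternatives were quantile normalization, a signal filter, an intensity trend, array weights, a replicate block, leaving out each array, the 6 arrays alone and other pfp limits.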

Additional observations from a re-analysis of the deposited data

Results flagged for a closer look

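The miR-11 difference was tested for being unlike with and without dE2F1/dDP, as an interaction in limma. For probe set 1629242_x_at it differed by log2 4.23 ± 0.41 (SE, limma adjusted p = 0.00334), at -0.08 with dE2F1/dDP present and -4.31 without. For 1624543_s_at it differed by log2 4.29 ± 0.34 (SE, limma adjusted p = 0.00112), at 0.40 with dE2F1/dDP present and -3.89 without. This probe set was as low with dE2F1/dDP alone (log2 -3.75 against the control), so only the control arrays were high. Of the 29 probe sets called with miR-11 alone, 7 passed this test, 5 of them falls and 2 of them rises, and 9 of all 18769 passed (0.048%). The test shares its miR-11 and control arrays with the choice of the 29, so these values are a description.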

How the results depend on the processing

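Quantile normalization, the signal filter, the intensity trend and the replicate block each left the 4 counts of probe sets within 1.5 times their value (miR-11 against control 22, 22, 22 and 24, against 29). The 4 named probe sets kept their direction and their call under each of these 4, under gene-by-gene array weights, without each array in turn and in the 6 arrays alone. The replicate numbers did not pair the miR-11 and control arrays in the same direction: 0 of 3 such pairs, and 6 of 18 in all, correlated above 0.1 after group means were removed. For replicates 1, 2 and 3 these correlations were -0.661, 0.0252 and -0.585 between miR-11 and control. Between miR-11 and dE2F1/dDP they were 0.71, 0.00633 and 0.844. With the replicate block 24 probe sets were called for miR-11 against control, 23 of them among the 29, and 23 for miR-11 against dE2F1/dDP. Array weights by limma's default method, which was the method first chosen, did not converge: 1 array took a weight of 165 and the 4 counts were 3163, 12005, 1165 and 24, which are given as a record only. Estimated gene by gene, a choice made after seeing the data, they ran from 0.181 to 6.38 with the most on miR-11 replicate 2, and gave 494 calls for miR-11 against control, 8504 against dE2F1/dDP, 402 for miR-11 added to dE2F1/dDP, 19 of the 29 with an interaction, and 257 differences of log2 1 or more. The 6 arrays alone gave 10 calls. Leaving out single arrays gave 14 to 45, 11 to 77, 4 to 7 and 6 to 9 for the 4 counts in that order, and 136 to 351 differences of log2 1 or more. In the authors' deposited table a pfp under 0.01 left 18 genes, 9 higher and 9 lower, and one under 0.1 gave 79. All 60 called genes were past log2 1. The cause of these shifts was not tested.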
